A study of Mus musculus with 6 samples.

Results

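The clustered protocadherin genes encode cell-surface adhesion proteins that lie side by side in the Pcdha, Pcdhb and Pcdhg clusters of mouse chromosome 18. They were taken as the protein-coding genes of that chromosome whose symbol starts with Pcdha, Pcdhb or Pcdhg followed by a number, by a or b and a number, or by c and a number. The rule found 57 of the 21627 protein-coding genes placed on the autosomes and X, with 14 in Pcdha, 22 in Pcdhb and 21 in Pcdhg. With 500 kb of flank on each side they covered 182 of the 237602 windows of the deposited tables, from 36423012 to 38344313 (mm10), and each of these windows had a score and a raw level in all 6 profiles.

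The series held 3 wild-type (WT) samples and 3 samples that were Recql4-/- Klhdc3-/-, all of them mouse myeloid cells immortalised with HoxB8, selected in GM-CSF and grown in IMDM with serum. Recql4 encodes a RecQ helicase with a role in the start of DNA replication, and Klhdc3 a substrate receptor of a ubiquitin ligase. A division took 15 to 18 hours, with over 25% of the culture in S phase, by the series' own description. Libraries of 150-bp paired reads were aimed at 30-fold coverage. The sources used here do not give the depth reached or the number of separate lines per genotype. Copy level of DNA carries no expression, so it cannot check the labelled cell type.

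The 6 columns of values carried no names and no label tied one to a sample. They are called profiles A to F in column order, and no profile is a known member of a genotype or a known replicate of another. The genes were chosen by symbol, but the region was selected on its timing scores and raw levels, from the contrast of profiles A, B and C (columns 5 to 7) with D, E and F (columns 8 to 10). That contrast is therefore given as a description of the columns, with no test, and says nothing of wild type against mutant. The large copy shifts of this series lie on other chromosomes. On chromosome 18 the median raw level was between 1.94 and 1.97 in the 6 profiles, against autosomal medians between 1.96 and 1.98.

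Each neuron expresses a small, largely random set of clustered protocadherins, which gives the cell a surface identity for self-recognition. The choice is made among alternative promoters, each before its own variable first exon. CTCF and cohesin bring a chosen promoter to a distant enhancer. In Pcdha and Pcdhg the variable exons are spliced to constant exons shared by the whole cluster, whereas Pcdhb genes are single-exon genes without a constant part. Their known roles are in neurons rather than in blood cells. Transcribed DNA tends to replicate early, and a growing culture has more copies of what replicates early, which sequencing depth can read.

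The gene models show this layout. The 14 Pcdha models started between 36930285 and 37143678 and ended within 1240 bp of each other. The 21 Pcdhg models started between 37661775 and 37819546 and ended within 10 bp of each other. Pcdhb models had a median length of 3418 bp, against 204522 bp in Pcdha and 116168 bp in Pcdhg. A member was therefore placed at its lower coordinate, the end that differs between members, and took the score of the window there. The timing score is the authors' smoothed value, scaled so that autosomal windows of a profile centre on 0 with an SD of 1, and a higher score stands for earlier replication. The 57 members fell into 42 windows, so neighbours often share a value, and the smoothing ties adjacent windows together.

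The clusters formed a trough in timing score, later than both flanks. The smoothed score fell from an early maximum on the proximal side to a minimum within Pcdhb and rose again through Pcdhg to a distal plateau. In profiles A to F the minimum was -0.214, -0.245, -0.263, 0.131, 0.0493 and 0.127. Profiles A, B and C went below the autosomal mean, and D, E and F did not. This contrast of signs was lost on a running mean of 21 raw windows, rescaled per profile, where the minima of D, E and F were -0.226, -0.360 and -0.242. Profile E also fell below 0, at -0.0381, when scores were rescaled over the 12 autosomes without large copy shifts. All 6 minima of the smoothed score lay inside Pcdhb, between 55.5 and 113 kb beyond the start of Pcdhb1. Those of the running mean also lay inside Pcdhb, but at 86.0, 25.5, 65.7, 14.9, 65.7 and 14.9 kb in A to F.

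**Figure D1:**
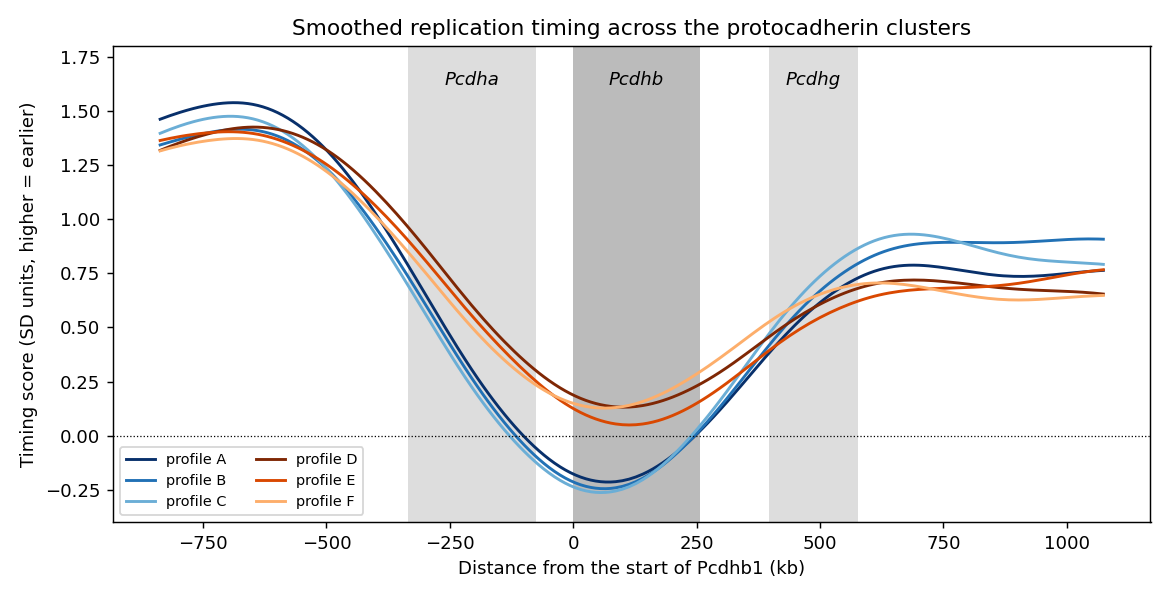
Timing score (SD units, higher is earlier) of the 182 windows against distance in kb from the start of Pcdhb1, with 1 line per profile and the 3 clusters shaded. Blue lines are profiles A to C and orange to brown lines D to F, by column order only. The minimum lies in Pcdhb in each line, between -0.263 and -0.214 in A to C and between 0.0493 and 0.131 in D to F.

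The proximal maximum was 1.54, 1.42, 1.48, 1.43, 1.40 and 1.37 in profiles A to F, at a distance of 745 to 813 kb from the minimum. The score thus fell by 1.75, 1.66, 1.74, 1.29, 1.35 and 1.25 units, a slope between 0.167 and 0.232 units per 100 kb. The distal rise was 1.00, 1.15, 1.19, 0.587, 0.717 and 0.578 units. It was measured over unlike distances of 625, 978, 625, 591, 961 and 554 kb. In E the distal maximum was the last window of the region, so the flank width limits that rise. Fall and rise were each larger in A, B and C than in D, E and F, without overlap. The minimum was still no extreme of the genome, since 38.9% to 52.5% of the autosomal windows of the same profile were later. The stretch below 0 measured 351, 361 and 361 kb in profiles A, B and C. It began near Pcdhac2 and ended near Pcdhb20.

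The distal plateau was a feature of the smoothed score. The running mean of raw level had a second, shallower dip in the distal flank, with minima of 0.0676, 0.338, 0.151, 0.240, 0.221 and 0.0681 in profiles A to F. These lay in windows between 38080647 and 38182686, proximal to the start of Pcdh1, where the smoothed score was 0.640 to 0.891. Beyond the dip the running mean rose to between 0.990 and 1.29. In raw level the bin from 38100001 to 38200000 had 1.95, 1.99, 1.95, 1.96, 1.95 and 1.95. The Pcdhb bin from 37300001 to 37400000 had 1.88, 1.87, 1.87, 1.92, 1.90 and 1.95. The highest bin that overlaps Pcdhb, from 37400001 to 37500000, had 1.94, 1.97, 1.97, 2.02, 1.96 and 2.02.

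Pcdha, the most proximal cluster, lay on the falling slope. Pcdha1, its first and earliest member (36930285 to 37187657), scored 0.797, 0.745, 0.704, 0.971, 0.909 and 0.855 in A to F. Its median of 0.826 was close to the middle of the autosomal protein-coding genes, of which 50.7% were later. Scores then declined along the cluster to Pcdha12, the last of the alternate members, at 0.458, 0.417, 0.373, 0.721, 0.669 and 0.613. In both genes D, E and F were the higher profiles and the 2 column sets did not overlap.

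The C-type members Pcdhac1 and Pcdhac2 close the cluster. They differ from the alternate members in being expressed by most neurons of a type rather than by random choice. Pcdhac1 (37090136 to 37187657) scored 0.196, 0.158, 0.120, 0.514, 0.470 and 0.421 in A to F. Pcdhac2, the last and latest of Pcdha (37143678 to 37187663), scored 0.0447, 0.00628, -0.0250, 0.389, 0.344 and 0.309. It was the only Pcdha member with a score below 0 in any profile. Members that share their constant exons thus ranged in median score from 0.177 to 0.826 between the windows of their first exons. Taken at the midpoint of the gene model the Pcdha median was 0.322 in place of 0.625, since midpoints lie nearer to the shared exons.

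Pcdhb held the latest members. Pcdhb1, the first (37264998 to 37267454), scored -0.181, -0.218, -0.240, 0.183, 0.120 and 0.146 in profiles A to F. Pcdhb8 (37355271 to 37357610) had the lowest median of all 57 members, -0.0794, with -0.213, -0.241, -0.256, 0.133, 0.0540 and 0.130. Only 17.2% of the autosomal genes were later. From there the scores rose to Pcdhb22, the last of the cluster (37518353 to 37521419), at 0.0109, 0.0146, 0.0325, 0.232, 0.152 and 0.288. That window also holds the start of Pcdhb21.

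Of the 22 Pcdhb genes, 20 scored below 0 in profile A, 20 in B and 19 in C, and 0 in D, E and F. Pcdhb21 and Pcdhb22 were above 0 in all 6 profiles. The sign of a Pcdhb median therefore depended on which profiles entered it. With A, B or C left out the median over the cluster's members was 0.0816, and with all 6 it was -0.0333.

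Pcdhg lay on the rising slope. Pcdhga1, its first and latest member (37661775 to 37841870), scored 0.385, 0.420, 0.474, 0.459, 0.395 and 0.527 in A to F. Here the column sets were interleaved. Pcdhga12 scored 0.614, 0.667, 0.736, 0.606, 0.545 and 0.653, again with overlap. All 21 Pcdhg members scored above 0 in each profile, and the range over profiles was between 0.127 and 0.229 units, against 0.277 to 0.423 in Pcdhb.

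The C-type members of Pcdhg were its earliest. Pcdhgc3 (37806410 to 37841873) scored 0.681, 0.741, 0.811, 0.650, 0.589 and 0.682. Pcdhgc4, whose loss among Pcdhg genes is known to affect neuronal survival, and Pcdhgc5 share a window and scored 0.695, 0.757, 0.827, 0.659, 0.598 and 0.687. In this window A, B and C were the higher profiles, by 0.00768 units between the nearest values. By smoothed score, C-type genes thus stood at the later end of Pcdha and at the earlier end of Pcdhg, which in both clusters is the end next to the constant exons. Within Pcdha this order turned on raw 100-kb bins, where Pcdhac2 had 0.411 and the bin shared by Pcdha12 and Pcdhac1 had -0.224.

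**Figure D2:**
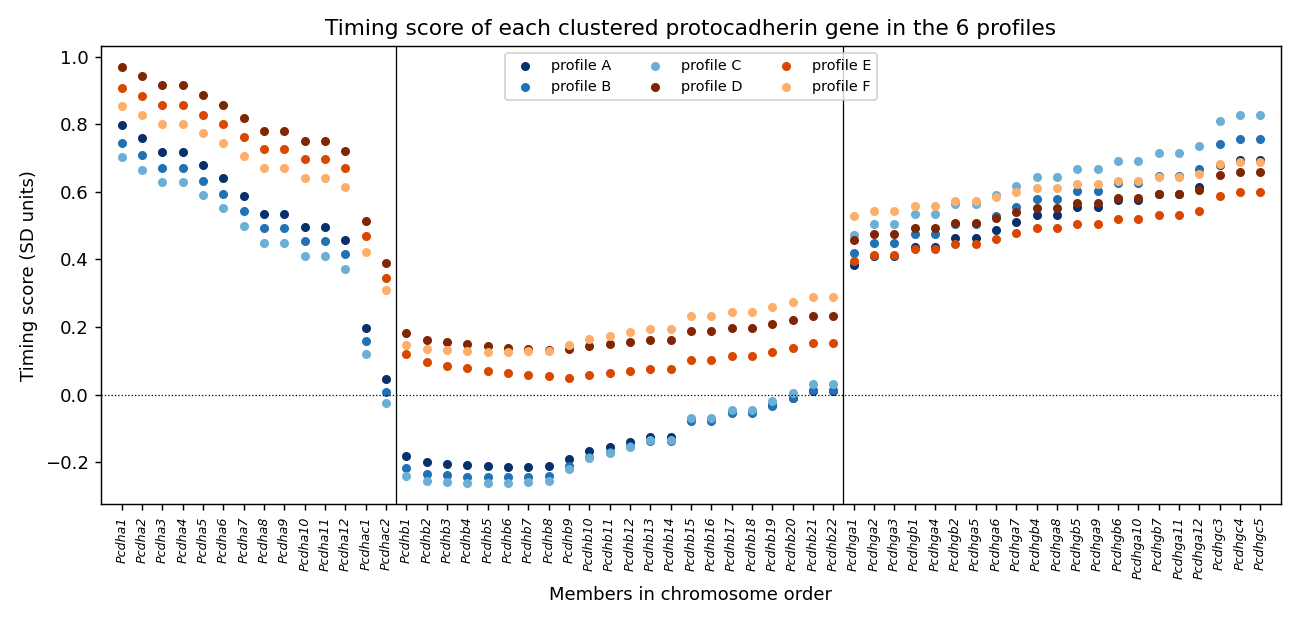
Timing score (SD units) of each of the 57 members in chromosome order, with 1 point per profile (A to C blue, D to F orange to brown, by column order only) and vertical lines between the clusters. Points of A to C lie below those of D to F for each Pcdha and Pcdhb member, and the colours mix in Pcdhg.

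Counted over members, profiles A, B and C all scored below D, E and F at 36 of 57 genes, namely the 14 of Pcdha and the 22 of Pcdhb. The same held for 7.16% of the 18036 autosomal genes with a score in 6 profiles. They all scored above at 2 members, Pcdhgc4 and Pcdhgc5, against 26.9% of autosomal genes, and 19 members overlapped. Since the contrast was used to choose the region, and neighbours share smoothed windows, nothing is read from these shares. With a gap of at least 0.2 units required, 16 members were lower in A, B and C, beside 0.826% of autosomal genes, and 0 higher, beside 1.42%.

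Over windows, 48 of the 67 that overlap a cluster were later in A, B and C without overlap, where 13.3% of the autosomal windows were. Another 4 were earlier, where 19.8% of the autosomal windows were. The later windows formed 1 unbroken stretch of 67 windows and 738 kb, from 36871209 to 37609516. It began between Zmat2 and Pcdha1 and ended between Pcdhb22 and Pcdhga1. By over 0.2 units, 36 windows of the region were later in A, B and C, beside 1.75% of the autosomal windows, and 17 of the 36 were in Pcdhb. In the distal flank 46 of the 49 windows were earlier in A, B and C by smoothed score. That order was not stable. It held in 18 windows on the running mean of raw level, beside 17.1% of autosomal windows, and in 10 single raw windows, beside 11.3%. After rescaling over the 12 autosomes without large copy shifts it held in 0, beside 17.4%.

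Averaged over windows, Pcdhb was again the latest cluster in each profile. The order of Pcdha and Pcdhg was not kept: their medians over profiles were 0.423 and 0.609 by windows, but 0.625 and 0.566 by members. The Pcdha mean was 0.328, 0.287, 0.249, 0.614, 0.564 and 0.517 in profiles A to F. The Pcdhb mean was -0.148, -0.168, -0.174, 0.163, 0.0838 and 0.176. The Pcdhg mean was 0.581, 0.633, 0.698, 0.585, 0.524 and 0.632. A, B and C were lower than D, E and F in Pcdha and Pcdhb, while the profiles overlapped in Pcdhg. The median over profiles placed 60.9%, 45.3% and 67.8% of autosomal windows later than Pcdha, Pcdhb and Pcdhg.

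The unsmoothed raw level, a normalised DNA copy level, showed the trough as well. Its mean in the proximal flank was 2.21, 2.17, 2.15, 2.15, 2.16 and 2.18 in A to F. In Pcdhb it was 1.92, 1.92, 1.93, 1.97, 1.93 and 1.98, and in the distal flank 2.10, 2.11, 2.09, 2.06, 2.07 and 2.08. Each profile thus held fewer copies of Pcdhb than of either flank. This did not hold for Pcdhg, whose raw mean of 2.13, 2.13, 2.12, 2.09, 2.08 and 2.13 lay above the distal flank in each profile. The raw trough was not centred on Pcdhb. The stretch between Pcdha and Pcdhb was lower than Pcdhb in each profile but A, at 1.921, 1.878, 1.904, 1.965, 1.920 and 1.924. The stretch between Pcdhb and Pcdhg was lower than Pcdhb in D (1.891) and F (1.961). For scale, the earliest and latest 20% of autosomal windows differed by 0.342 to 0.427 in raw level.

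The column sets also differed in raw level, by less than the trough is deep. In Pcdha the raw mean was 2.01, 2.02 and 2.01 in A, B and C and 2.05, 2.06 and 2.06 in D, E and F. In Pcdhb the nearest values of the sets were 1.926 (C) and 1.932 (E). Without 1 window between Pcdhb8 and Pcdhb9, described with the other observations, the Pcdhb levels of B (1.944) and E (1.942) overlapped. Window by window the raw levels rarely separated: in 9 of the 67 cluster windows A, B and C were all lower, beside 3.62% of autosomal windows, and in 2 all higher, beside 11.3%. On the running mean of raw level, 48 cluster windows were lower in A, B and C (12.8% of autosomal windows) and 8 higher (17.1%). The lower count stayed at 48 without the window between Pcdhb8 and Pcdhb9.

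**Figure D3:**
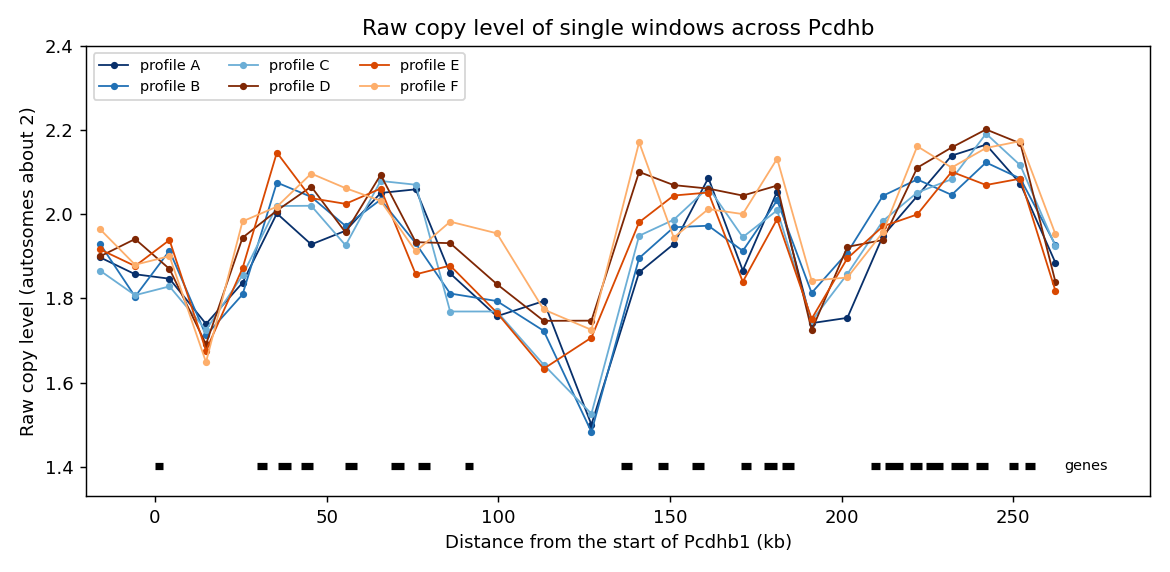
Raw copy level of single windows (autosomes about 2) against distance in kb from the start of Pcdhb1, with 1 line per profile (A to C blue, D to F orange to brown, by column order only) and black bars for the 22 Pcdhb genes. Lines cross in most windows, and in the window between Pcdhb8 and Pcdhb9 the blue lines lie between 1.48 and 1.53 and the others between 1.71 and 1.75.

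**Figure D4:**
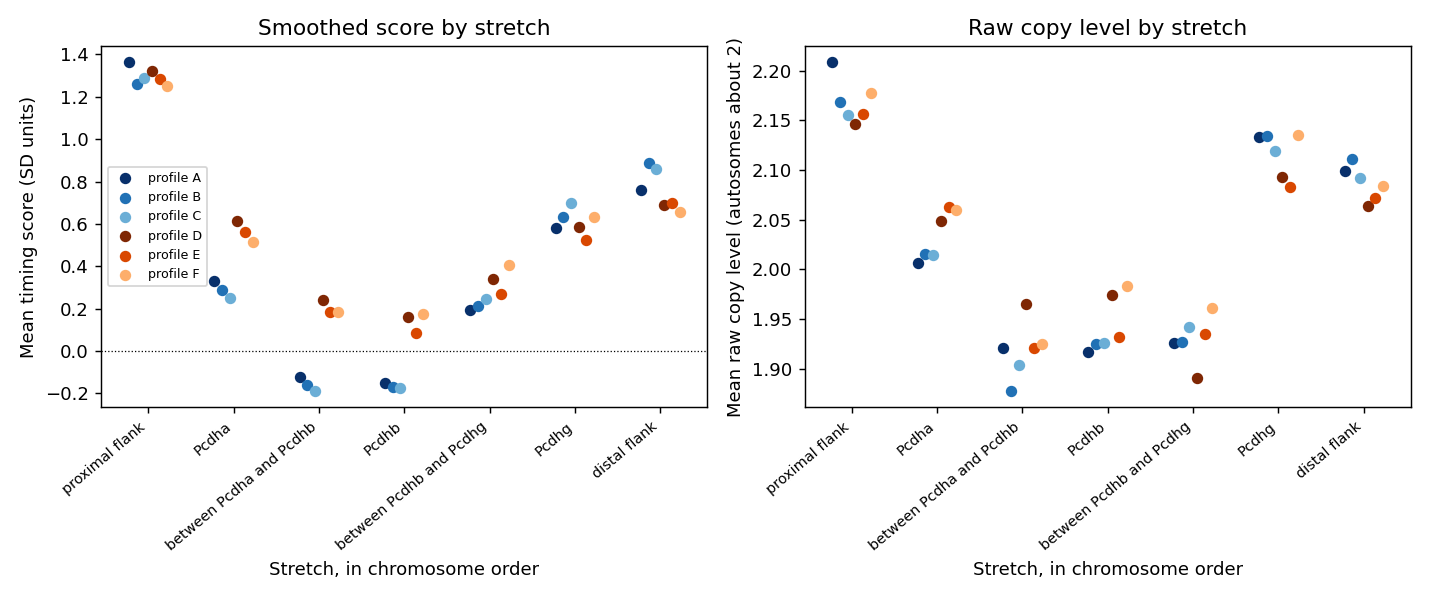
Mean timing score (left, SD units) and mean raw copy level (right) of each profile over the flanks, the 3 clusters and the stretches between them, in chromosome order, with 1 point per profile and no error bar. Both panels are lowest from the stretch after Pcdha to the stretch after Pcdhb. The sets A to C and D to F separate on both scales in Pcdha and Pcdhb, in raw Pcdhb level only by 1.926 against 1.932. They also separate on both scales in the distal flank, where A to C are higher, in raw level by 2.092 (C) against 2.084 (F).

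Spread of scores differed between profiles in ways not tied to these genes. Over chromosome 18 the SD of the score was 0.906, 0.901 and 0.882 in A, B and C and 0.839, 0.848 and 0.837 in D, E and F, so the score had a narrower spread along the chromosome in D, E and F. Scaling over the 12 autosomes without large copy shifts in place of all autosomes left 36 members and 48 cluster windows lower in A, B and C, beside 11.4% of autosomal genes and 15.9% of autosomal windows at that scale. No member or cluster window was then higher in A, B and C, beside 17.1% of genes and 17.4% of windows. The part of the narrower spread in the shallower trough was not tested. Over the Pcdhb windows the range over the 6 profiles had a median of 0.365 units, wider than in 70.8% of autosomal windows. In Pcdha it was 0.380, wider than in 73.6%. In Pcdhg it was only 0.182, wider than in 15.7%, and in the proximal flank 0.158, wider than in 9.66%. The region was selected on a contrast of the profiles, so nothing is read from these ranks.

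The genes beyond the clusters were earlier than the members on the proximal side. The 18 protein-coding genes of the proximal flank had median scores between 1.18 and 1.41. Ankhd1 was the earliest at 1.41, and Zmat2, the nearest to Pcdha at 131 kb, the latest at 1.18. Cd14, the monocyte receptor for lipopolysaccharide and a gene of the labelled lineage (36725064 to 36726815), scored 1.40, 1.31, 1.32, 1.37, 1.31 and 1.28 in A to F. It lay 203 kb before Pcdha1 with overlapping profiles. Between Cd14 and Pcdha1 the median score dropped from 1.31 to 0.826.

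Taf7, a subunit of the general transcription factor TFIID, and Slc25a2, a mitochondrial carrier, are the only other genes between Pcdhb and Pcdhg. Taf7 scored 0.331, 0.362, 0.412, 0.424, 0.360 and 0.495, and Slc25a2 0.295, 0.324, 0.370, 0.401, 0.336 and 0.472. Both overlapped between the column sets. A gene used in all cells such as Taf7 thus sat on the same smoothed slope as its protocadherin neighbours.

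Distal to Pcdhg the 10 flank genes had median scores between 0.716 and 0.763. Diaph1, an actin nucleator that starts 1.73 kb beyond Pcdhg, was the latest with 0.732, 0.799, 0.869, 0.683, 0.624 and 0.699. Hdac3, a histone deacetylase, scored 0.786, 0.875, 0.929, 0.718, 0.669 and 0.698, and Gnpda1 was the earliest. In 9 of these 10 genes the smoothed scores of A, B and C were above those of D, E and F, beside 26.9% of autosomal genes. The order held for 5 of the 10 on the running mean of raw level and for 2 in single raw windows. The share of all genes was not counted on these raw scales. After rescaling it held for 0, beside 17.1% of autosomal genes. The flanks exceeded the mean of the clusters by a median of 0.971 units (proximal) and 0.423 units (distal).

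Protocadherin genes outside the clusters lay later, apart from 3. Non-clustered protocadherins encode related adhesion proteins from single genes. Of 12 listed, 10 are autosomal, with a median score of -1.06, against 0.484 for the clustered members and 0.816 for all autosomal genes. Pcdh10 on chromosome 3 was the latest at -1.87, in a stretch where profile D stood at -3.02. Profile D also stood apart at Pcdh9 on chromosome 14, with -2.56, where the next lowest profile was C at -1.27. The part of copy shifts in the scores of genes on other chromosomes than that of the clusters was not tested. Pcdh8 on chromosome 14 was the earliest at 0.821. Pcdh1 and Pcdh12, which lie in the distal flank, scored 0.723 and 0.747. Those 3 were above 0 in each profile and the other 7 below 0 in each.

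Genes that act on the clusters ranged from the level of the members to far earlier. Among 12 listed regulators, which include CTCF, cohesin subunits and loaders, and factors of promoter methylation and silencing, 8 were autosomal with a score in all profiles, and each was above 0 in each profile. Setdb1, a histone H3 methyltransferase gene, was the earliest at 1.58, Ctcf scored 1.56 and Wapl, the cohesin release factor, was the latest at 0.465. Rad21 (0.513) and Stag1 (0.524), which encode cohesin subunits, also lay below the median of all autosomal genes, near the members' median. Smchd1, which silences clustered protocadherins, scored 1.54. Dnmt3a and Smc3 lacked a score in part or all of the profiles, and Smc1a and Stag2, on X, were left out of the counts.

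Compared with other gene clusters, the protocadherins stood near the Hox genes. The 39 Hox genes, which set body axis identity, had a median score of 0.406, with 20 above 0 in each profile and 19 mixed. Of the 57 clustered protocadherins, 36 were above 0 in each profile and 21 mixed. The 1020 autosomal olfactory receptor genes with a score, also a neuronal family in tandem clusters, had a median of -0.705, and 738 of them were below 0 in each profile, against 0 of the protocadherins. A, B and C were all later at 0 of the Hox genes and at 20.9% of the olfactory receptor genes, beside 7.16% of all autosomal genes. They were all earlier at 8 of the Hox genes (20.5%) and at 18.6% of the olfactory receptor genes, beside 26.9%. These differences were not tested, since the profiles are no replicates of a group.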

How the data were processed

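The authors deposited 2 headerless tables over the same 237602 windows of at least 10000 bp, each with 4 position columns and 6 value columns, none left unused. Per the submitters' processing notes, Picard 2.23.9 was used and coordinates are mm10. The series title names TIGER, which infers timing from depth. The sources used here do not give the aligner, the GC correction, the window filter or how values were smoothed. The deposited score was smoothed and scaled per profile by the authors; the raw level was normalised to about 2 on autosomes. The depth behind a window is unknown.

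Genes came from RefSeq (GRCm38.p6), matched by symbol, and took the window at their lower coordinate, or the nearest within 50 kb. No strand was given there. Windows overlapping a cluster made its mean. A window, bin or gene was called separated when the 3 values of A to C lay all above or all below those of D to F. Functions were tested on simulated data. Members and lists were chosen with earlier results of these data known. Genes were named as the first, last, earliest and latest of each cluster, the C-type genes, and the nearest, earliest and latest flank genes with Cd14, Taf7, Slc25a2, Diaph1 and Hdac3. Pcdha12, Pcdhga12, Pcdhb9, Pcdhb20, Pcdhb21, Pcdh1, Pcdh12, Ctcf, Rad21, Smchd1, Stag1 and the models that span the clusters were added after values were seen. The planned limma test of genotype was not run, since no column has a name. Alternatives were another gene position, raw levels, rescaling, other cluster or flank widths, gap minimums and each profile left out. Python 3.11.15 and pandas 2.3.3 were used.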

Additional observations from a re-analysis of the deposited data

How the results depend on the processing

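No paired analysis was possible because no column has a name to pair by. Alternatives with a running mean, a window left out, a lone trough minimum, or counts of separated members or distal flank features were chosen after seeing the data. Of the values of named genes under alternatives, 96 kept their sign and moved by less than the SD over profiles, 15 moved further and 9 changed sign. On raw 100-kb bins each of these genes moved further or changed sign. Of the member median, cluster, flank, trough and separation values, 134 were kept, 39 moved further and 12 changed sign. Counts were judged by their ratio. At gene midpoints the median member score was 0.309 (Pcdha 0.322, Pcdhg 0.659), over whole gene models 0.316 (0.325, 0.653) and on raw 100-kb bins 0.848 (1.36, 0.848). On those bins the signs of Pcdha12 and Pcdhac1 (-0.224 each, in 1 bin) and Pcdhb22 (-0.323) turned. Cluster means were -0.208 (Pcdhb) and 0.776 (Pcdhg) on rescaled raw levels, and Pcdhb stood at 0.000445 when widened by 50 kb and at 0.0129 in 100-kb bins. The proximal flank excess was 0.841 with 250-kb flanks and 0.752 on raw levels. Windows lower in A to C numbered 29 at a gap of 0.2, and 5 of 10 on raw 100-kb bins (12.5% of autosomal bins lower, 12.5% higher); members numbered 16 at that gap. Windows higher in A to C numbered 0 at gaps of 0.1 and 0.2, 0 after rescaling over steady autosomes, 0 on raw bins and 8 on the running mean, with or without the window between Pcdhb8 and Pcdhb9, and members 0 at both gaps, after rescaling and on raw bins. In the distal flank, windows and genes higher in A to C numbered 46 and 9 on the smoothed score. They numbered 18 and 5 on the running mean (17.1% of autosomal windows) and 10 and 2 on raw windows (11.3%). After rescaling they numbered 0 and 0, beside 17.4% of autosomal windows and 17.1% of autosomal genes. Trough minima on the running mean were -0.654, -0.778, -0.821, -0.226, -0.360 and -0.242 in A to F, below 0 in all 6, and profile E turned to -0.0381 after rescaling over steady autosomes. With 1 profile left out, the Pcdhb member median ran from -0.147 to 0.0816, the Pcdhb mean from -0.148 to 0.0838, Pcdhb1 from -0.181 to 0.120 and Pcdhb8 from -0.213 to 0.0540. Windows higher in A to C then ran from 4 to 10 (10 without A or without F) and members from 2 to 6 (6 without A or without F). Depth is unknown, so what it limits was seen only in the scatter of raw levels between windows.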

Other observations

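One window between Pcdhb8 and Pcdhb9 stood apart in raw level. It reaches from 37383260 to 37401008, is 17749 bp wide and includes the start of Pcdhb9. Its raw level was 1.50, 1.48 and 1.53 in profiles A, B and C and 1.75, 1.71 and 1.73 in D, E and F. The gap of 0.181 between the sets was the widest of the region, and 95 of the 202561 autosomal windows (0.0469%) had a gap as wide in this direction. The window was picked for that gap in a region selected on the same contrast, so nothing is read from this share. The window before it, without a member's start, did not separate the sets. The window after it (37401009 to 37411046) did so in the same direction, with 1.86, 1.90 and 1.95 in A, B and C against 2.10, 1.98 and 2.17 in D, E and F, a gap of 0.0321. The score of Pcdhb9 in this window was -0.191, -0.212, -0.221, 0.135, 0.0504 and 0.148, in step with its neighbours.

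A pair of neighbouring windows inside Pcdha, between Pcdha12 and Pcdhac1, was low in all profiles. The first (37021710 to 37038919) had a median raw level of 1.57, and 1.05% of autosomal windows were lower. The second (37038920 to 37053350) had a median of 1.59. Scores there followed the smooth slope. A window between Pcdhb22 and Slc25a2 (37583416 to 37598260) was similar at 1.59. These windows were 14431 to 17210 bp wide, against a median of 10041 bp over the genome. Of the 67 cluster windows 9 exceeded 11000 bp, or 6 of 24 in Pcdha, 3 of 24 in Pcdhb and 0 of 19 in Pcdhg, against 12.0% over the genome. Width and raw level were not tested against each other.

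The annotation also holds 3 protein-coding models, Gm37013, Gm38666 and Gm38667, that start within Pcdha and end at the constant exons of Pcdhg, across all of Pcdhb. Placed at their starts they scored 0.760, 0.693 and 0.648, as the Pcdha genes there did. They were counted neither as members nor as flank genes.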
